A study of Mus musculus with 11 samples.

Results

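The accessible chromatin around 6 mouse genes of the oxygen-sensing switch was described: the prolyl hydroxylases Egln1, Egln2 and Egln3, the asparagine hydroxylase Hif1an, the ubiquitin ligase subunit Vhl, and the membrane prolyl hydroxylase P4htm. Every region of the merged ATAC-seq list that overlapped one of these genes, or the 20 kb before or after it, was taken. This gave 33 of the 94963 regions: 7 at Egln1, 6 at Egln2, 3 at Egln3, 6 at Hif1an, 4 at Vhl and 7 at P4htm. ATAC-seq cuts open DNA with the Tn5 transposase, so that the number of cuts in a region measures its accessibility. The cells were MPC2, a clone of conditionally immortalised mouse mesenchymal progenitors, used either undifferentiated (MSCs) or after 3 weeks of osteogenic differentiation (osteocytes). The 11 cultures were 3 of MSCs with vehicle (DMSO), 3 of MSCs with FG-4592, 2 of osteocytes with vehicle and 3 of osteocytes with FG-4592. FG-4592 (Roxadustat), which inhibits the HIF prolyl hydroxylases, was present at 50 uM for 48 hours. All results thus come from 1 clone.

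The study compared drug with vehicle and osteocytes with MSCs. The list analysed here holds 1 value per region over all cultures and no value per culture. The value was taken as a mean level in log2 CPM, that is, Tn5 cuts scaled by library size on the log2 scale. No difference between the groups could be measured at these genes, no value below has a replicate error, and the depth per culture was unknown. The values are therefore descriptions, and where genes or regions differ, it cannot be said whether they differ beyond the spread of cultures. Of 10 osteogenic and mesenchymal marker genes, 7 had a region within 1000 bp of a start, among them Runx2, Sp7, Col1a1 and Dmp1. Phex, Sost and Mepe had none. Of the 10 markers of blood, epithelium, nerve and endothelium, 2 had such a region, Spi1 and Pecam1, with levels of 3.38 and 1.89 log2 CPM. The share of all coding genes with such a region was not computed. Counted over the outermost start, a region was present at 5 of the 10 osteogenic and mesenchymal markers and at none of the others. Among all protein-coding genes this share was 51.8%, so the 5 of 10 do not set these markers apart.

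Oxygen controls the stability of the alpha subunits of the hypoxia-inducible factors (HIF). The enzymes PHD1, PHD2 and PHD3, encoded by Egln2, Egln1 and Egln3, use oxygen, iron and 2-oxoglutarate to hydroxylate prolines of HIF-alpha, and the Vhl protein binds the hydroxylated form and directs it to degradation. Factor inhibiting HIF, encoded by Hif1an, hydroxylates an asparagine and thereby blocks the binding of the coactivators p300 and CBP. P4htm encodes a transmembrane prolyl hydroxylase of the endoplasmic reticulum related to the collagen enzymes. In many cell types Egln1 and Egln3 are themselves HIF targets, at which HIF binds the hypoxia response element (HRE), a short DNA sequence with the core ACGTG or GCGTG.

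The sequences directly upstream of the 6 starts are shown first because the results below turn on where HRE cores stand before the start. Each runs 5′ to 3′ on the strand of the gene and holds the 200 bases that end just before the most upstream annotated start, on mm10 (GRCm38). RefSeq gave a start for all 6 genes, which was used with that of GENCODE. The most upstream start was that of GENCODE except at Egln3, where the RefSeq start lies 14 bp further upstream. All distances in the text are counted from the outermost GENCODE start. Capitals mark HRE cores on either strand (ACGTG or GCGTG, or CACGT or CACGC when read on the other strand).
Egln1 upstream, chr8:124949325-124949524, minus strand: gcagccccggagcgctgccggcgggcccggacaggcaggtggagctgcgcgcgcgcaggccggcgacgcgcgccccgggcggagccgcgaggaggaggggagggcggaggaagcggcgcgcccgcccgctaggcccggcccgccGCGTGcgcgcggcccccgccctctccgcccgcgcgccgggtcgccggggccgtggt
Egln2 upstream, chr7:27166803-27167002, minus strand: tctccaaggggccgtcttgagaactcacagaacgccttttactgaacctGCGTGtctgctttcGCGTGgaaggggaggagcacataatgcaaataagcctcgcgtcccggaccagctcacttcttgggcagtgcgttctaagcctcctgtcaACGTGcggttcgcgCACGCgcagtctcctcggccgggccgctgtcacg
Egln3 upstream, chr12:54203875-54204074, minus strand: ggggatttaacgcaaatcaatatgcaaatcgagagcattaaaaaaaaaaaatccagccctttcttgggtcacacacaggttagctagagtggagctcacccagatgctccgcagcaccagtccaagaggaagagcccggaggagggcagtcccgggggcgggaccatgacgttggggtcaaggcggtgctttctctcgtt
Hif1an upstream, chr19:44562650-44562849, plus strand: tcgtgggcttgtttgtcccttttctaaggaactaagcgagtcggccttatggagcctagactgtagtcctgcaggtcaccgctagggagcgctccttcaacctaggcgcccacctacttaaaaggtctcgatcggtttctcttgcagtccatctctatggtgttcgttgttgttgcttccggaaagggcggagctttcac
Vhl upstream, chr6:113623759-113623958, plus strand: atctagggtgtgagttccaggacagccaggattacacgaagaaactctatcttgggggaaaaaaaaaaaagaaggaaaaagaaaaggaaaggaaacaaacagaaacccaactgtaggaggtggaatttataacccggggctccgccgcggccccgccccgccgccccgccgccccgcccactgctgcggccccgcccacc
P4htm upstream, chr9:108597668-108597867, minus strand: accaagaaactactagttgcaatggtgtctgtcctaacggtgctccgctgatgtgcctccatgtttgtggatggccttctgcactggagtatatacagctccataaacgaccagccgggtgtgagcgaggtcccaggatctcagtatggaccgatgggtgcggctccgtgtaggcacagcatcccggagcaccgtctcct
The Egln2 sequence held 4 complete cores in its 200 bases, Egln1 held 1, and the other 4 sequences held none. A core of Egln3 lay just beyond its printed stretch, at -243 bp from the GENCODE start. The GC content of the sequence was highest at Egln1, with 86.5%, and 53.0% to 60% at the other 5 genes. The SP/KLF box, searched as GGGCGG on both strands, stood 5 times in the Egln1 sequence and 4 times in that of Vhl, once each at Egln3 and Hif1an, and not at Egln2 or P4htm.

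A further set of stretches comes from regions away from every annotated start, and shows some of the motifs in them. Each is printed on the strand of the gene with 30 bases on either side of a site. Capitals mark an HRE core, or the palindrome CACGTG in which cores on both strands overlap, and in the stretch named AP-1 they mark an AP-1 site (TGACTCA or TGAGTCA).
Egln1 intron 1 region, first palindrome, chr8:124926461-124926526, minus strand: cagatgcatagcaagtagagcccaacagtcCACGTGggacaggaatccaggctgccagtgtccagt
Egln1 intron 1 region, next palindrome, chr8:124926121-124926186, minus strand: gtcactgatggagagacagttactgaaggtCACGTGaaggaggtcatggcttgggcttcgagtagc
Egln1 further intronic region, chr8:124922867-124922932, minus strand: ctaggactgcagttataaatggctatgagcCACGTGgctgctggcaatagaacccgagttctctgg
Egln1 upstream region, AP-1, chr8:124954888-124954954, minus strand: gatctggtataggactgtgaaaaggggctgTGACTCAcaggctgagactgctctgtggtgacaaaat
Egln3 intronic region, chr12:54192085-54192149, minus strand: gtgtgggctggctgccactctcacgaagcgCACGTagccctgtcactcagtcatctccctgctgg
Hif1an downstream region, nearer core, chr19:44582629-44582693, plus strand: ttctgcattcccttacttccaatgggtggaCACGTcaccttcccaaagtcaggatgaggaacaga
Hif1an downstream region, farther core, chr19:44582771-44582835, plus strand: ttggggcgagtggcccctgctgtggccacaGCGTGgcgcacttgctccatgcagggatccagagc
None of these stretches, nor of the upstream sequences, overlapped an annotated exon. The GCGTG core and the AP-1 site of the Egln1 intron 1 region are not printed. A match of letters describes the sequence and does not show that a factor binds there.

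All 6 genes had a region over their outermost transcript start. Over all 21755 protein-coding genes this was so for 51.8%. The regions differed in width and level, from a narrow, weak region at Egln3 to a broad one at Egln2. To compare genes, the level was divided by the region width, and this log2 CPM per kb ran in the order Hif1an (5.29), Egln2 (5.05), Vhl (4.75), Egln1 (4.70), P4htm (3.98) and Egln3 (3.04). The 10114 regions that lie over an outermost start of a coding gene had a median of 4.83 log2 CPM per kb, with quartiles of 4.15 and 5.38. Of the members, 4 lay between the quartiles, and P4htm and Egln3 lay below the lower one.

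**Figure D1:**
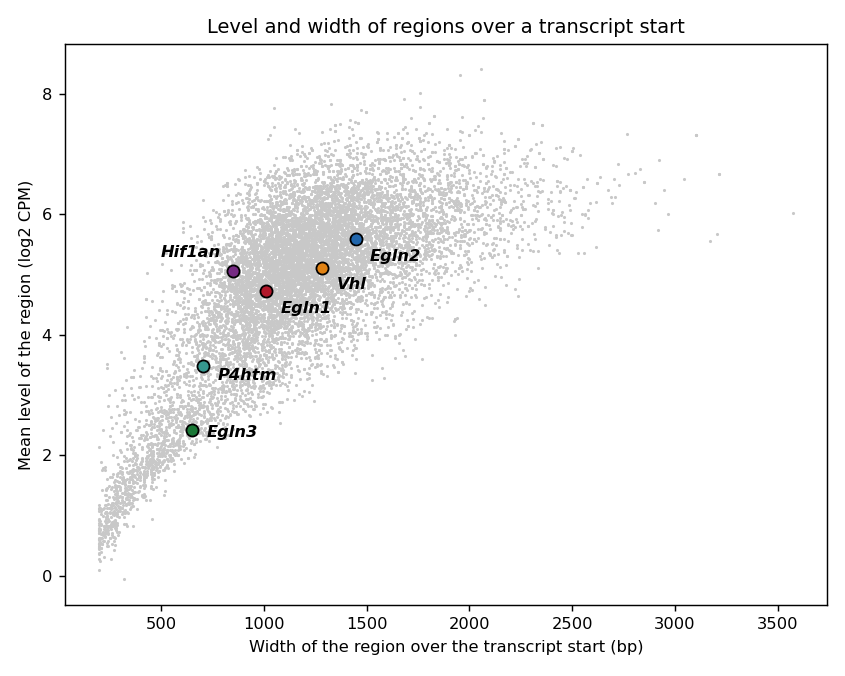
Width in bp (x axis) against mean level over all cultures in log2 CPM (y axis) of the regions over the outermost start of protein-coding genes, 1 grey point per gene, with the 6 members as labelled colored points. Egln3 (652 bp, 2.42 log2 CPM) and P4htm (705 bp, 3.48 log2 CPM) are the narrowest and lowest of the 6, and Egln2 is the widest (1446 bp) and highest (5.58 log2 CPM).

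Among the HIF prolyl hydroxylases, Egln2, which encodes PHD1 (chr7:27158658-27166802, minus strand), had the most accessible start. Its region spanned chr7:27166025-27167470, with 668 bp before the start and 777 bp after it, and overlapped the 5′ UTR in exon 1. The level was 5.58 log2 CPM, above 79.2% of the 17849 regions within 1000 bp of a coding start and above 68.2% of those over an outermost start. Against promoter regions of like width (within 10%) its level stood at the 54.3 percentile.

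The region over the start of Egln1, which encodes PHD2, the main oxygen sensor of most cells (chr8:124908587-124949324, minus strand), lay at chr8:124948964-124949975 and reached into the coding part of exon 1. Its level of 4.72 log2 CPM was above 57.3% of the coding promoter regions but above 36.2% of those over an outermost start, and at the 49.4 percentile of promoter regions of like width. Its GC content of 73.2% was higher than at 98.0% of the regions over an outermost start. The region was placed mostly before the start, with 64.3% of its width upstream, against a median of 40.6% over the start regions of coding genes. A further region of 922 bp, separated from it by a short gap, covered the coding end of exon 1 at 3.44 log2 CPM.

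Egln3, which encodes PHD3 (chr12:54178981-54203860, minus strand), stood apart from its paralogs. Its start region, chr12:54203352-54204003, covered the UTR and coding part of exon 1 with 143 bp before the start and 508 bp after it. The level of 2.42 log2 CPM was above 25.0% of the coding promoter regions and above 7.63% of those over an outermost start. Per kb it was above 5.18% of the latter, and it stood at the 19.1 percentile of promoter regions of like width. Its log2 CPM per kb was 1.66 below that of Egln1 and 2.02 below that of Egln2. Its GC content of 66.7% was above that at 83.8% of regions over an outermost start.

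Hif1an, which encodes factor inhibiting HIF (chr19:44562850-44576274, plus strand), had a compact start region of 849 bp at chr19:44562388-44563236. Its level of 5.05 log2 CPM was above 65.5% of the coding promoter regions and 47.9% of those over an outermost start. It stood at the 82.9 percentile of promoter regions of like width, the highest such percentile of the 6 start regions. Its GC content of 53.2% was the lowest of the 6 and above that of 13.5% of the regions over an outermost start. It was also the member with ETS boxes (CCGGAA on either strand) close to the start: 2 lay between 250 bp before and 49 bp after it. At least as many were present there at 6.96% of coding genes with an accessible start.

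Vhl, the substrate receptor of the HIF ubiquitin ligase (chr6:113623959-113631633, plus strand), had a start region at chr6:113623801-113625084 with a level of 5.11 log2 CPM, above 66.8% of the coding promoter regions and 49.9% of those over an outermost start, and at the 42.6 percentile of promoter regions of like width. It extended mainly into the gene, over exon 1 and beyond. Only 12.3% of its width lay upstream, which stood at the 4.46 percentile of the start regions of coding genes.

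P4htm (chr9:108578862-108597667, minus strand) had a start region at chr9:108597146-108597850 with a level of 3.48 log2 CPM, above 38.4% of the coding promoter regions and 15.2% of those over an outermost start. Against promoter regions of like width it stood at the 59.4 percentile, but at the 43.2 percentile of those of like width over an outermost start. A second region inside the gene, at chr9:108577983-108579220, had a level of 5.11 log2 CPM and 4.80 log2 CPM per kb, higher than the start of P4htm itself. It covered the start of the neighboring gene Wdr6, which encodes a WD-repeat protein, as well as the last exon of P4htm, and lay within 1000 bp of the start of a short noncoding P4htm transcript.

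**Figure D2:**
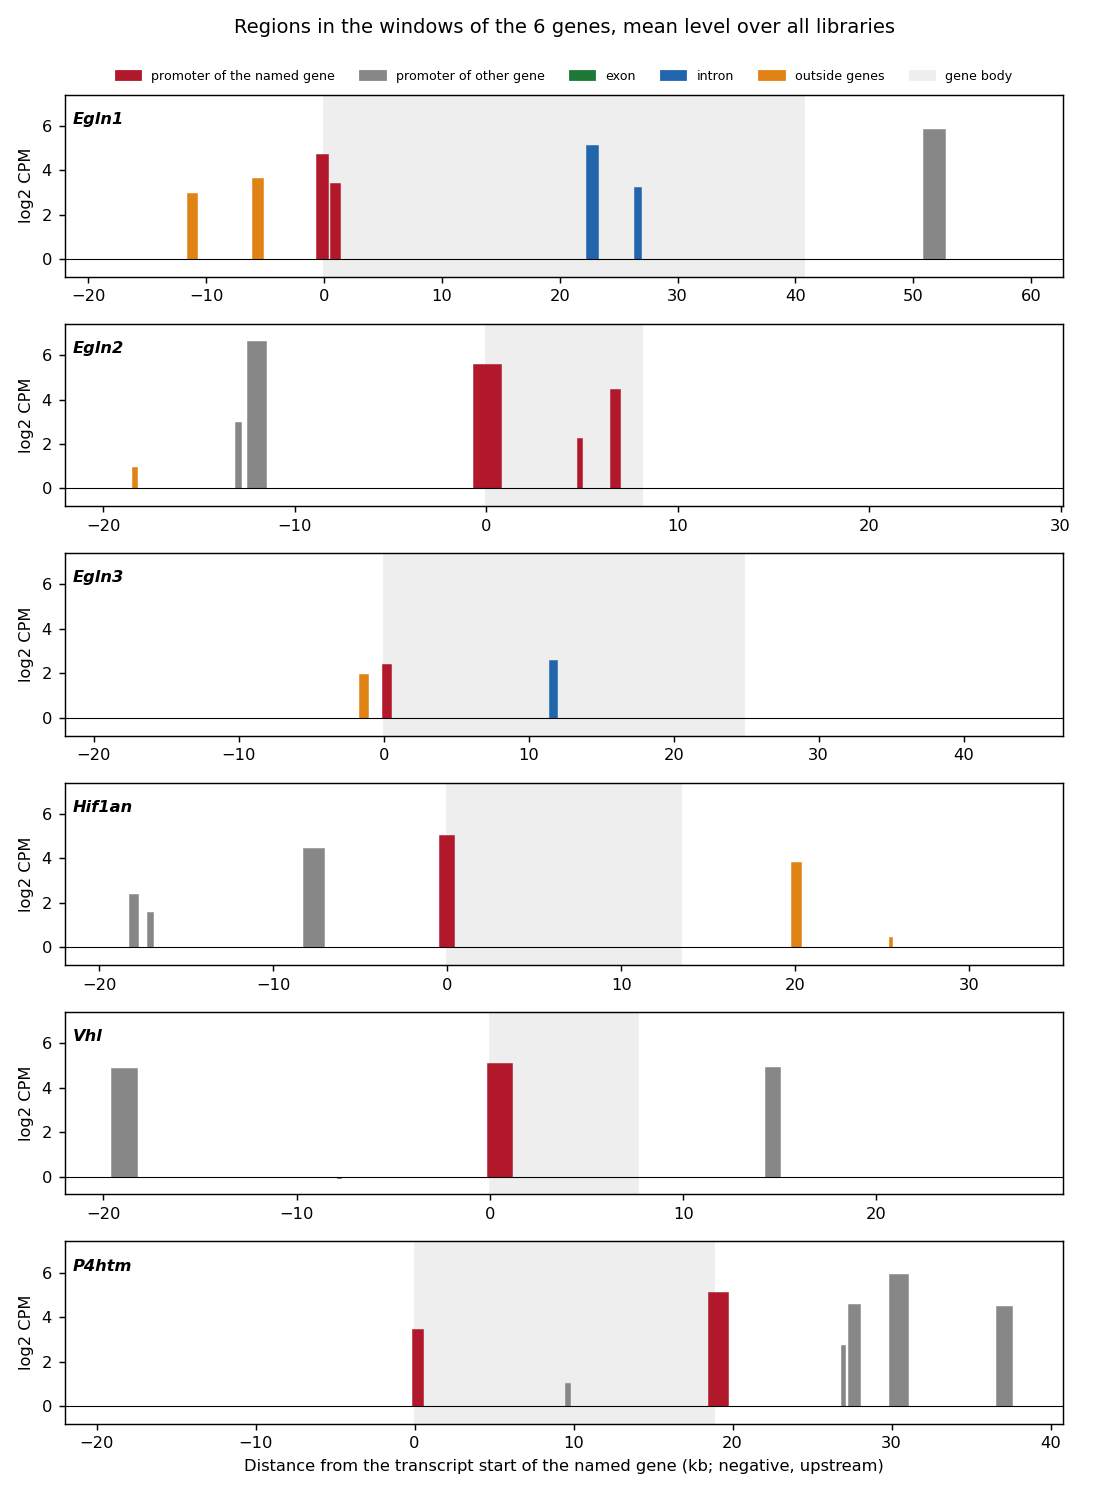
Level in log2 CPM (y axis) of all 33 regions against the distance from the outermost start of the named gene in kb (x axis), with 1 panel per gene whose x scale spans its own window, bar widths to scale, colors for the class of region and a shaded gene body. Egln1 and Egln3 have an intronic region above their own start region (5.11 against 4.72 and 2.62 against 2.42 log2 CPM), and in the P4htm window 5 of the 7 regions are promoters of other genes.

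Of the 33 regions, 10 were promoter regions of a member (within 1000 bp of one of its annotated starts) and 13 were promoter regions of other genes. The remaining 10 lay away from every start, 3 in introns, 1 in an exon and 6 outside genes. They were 4 at Egln1, 2 at Egln3, 2 at Hif1an, 1 at Egln2, 1 at Vhl and none at P4htm. Over all coding genes, 26.0% had no region away from starts in a window of this kind, and the median was 2. Levels of the 33 regions ran from -0.06 to 6.65 log2 CPM with a median of 3.65, against a median of 2.12 over the whole list, of which promoter regions make up a smaller share. By class, the median was 4.49 log2 CPM in the 23 promoter regions, against 3.89 in all 21537 promoter regions, and 2.80 in the 10 regions away from starts, against 1.89 in all such regions.

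The windows differed in how crowded they were. Per 10 kb of window, the number of regions was 1.25 at Egln2, 1.19 at P4htm, 1.12 at Hif1an, 0.87 at Egln1, 0.84 at Vhl and 0.46 at Egln3, against a median of 0.63 over coding genes. This order depended on the window. With flanks of 10 kb, Egln2 and Hif1an had 3 regions each and P4htm was densest (1.29 per 10 kb), and with 50 kb Vhl had 11 regions and was densest (1.02). The summed CPM per 10 kb was 38.4 at Egln2, higher than at 95.7% of coding genes, and 27.5 at P4htm, higher than at 90.0%. It was 19.9 at Vhl, 19.8 at Egln1, 14.8 at Hif1an and 2.37 at Egln3, against a median of 7.25. Promoter regions of other genes held 71.8% of the summed CPM at P4htm, 62.6% at Vhl, 58.6% at Egln2, 38.6% at Hif1an, 36.4% at Egln1 and none at Egln3. The number of other genes with a start in the window was 11 at P4htm, 6 each at Egln2 and Vhl, 3 each at Egln1 and Hif1an, and 0 at Egln3. Egln2 had the highest and Egln3 the lowest sum per 10 kb also with flanks of 10 or 50 kb and in gene bodies alone, but the order of the other 4 genes depended on the window. Egln2 had 91.8 and Vhl 44.9 in gene bodies alone, and with flanks of 50 kb P4htm had 13.9 and Hif1an 7.46.

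Egln1 had the most accessible of the 10 regions away from starts. It spanned 1073 bp of intron 1 (chr8:124926040-124927112), with its midpoint 22748 bp after the start, and its level of 5.11 log2 CPM was higher than in 98.5% of the 73426 regions away from every start. Against such regions of like width it stood at the 92.6 percentile. The level exceeded that of the Egln1 start region by 0.39 on the log2 CPM scale and by 0.30 per kb. A neighboring intronic region, 3005 bp further into the gene (chr8:124922393-124923034), had a level of 3.25 log2 CPM, at the 79.5 percentile of regions of like width away from starts, and 65.0% of its bases were marked as repeats in the genome, against a median of 8.99% over all regions.

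Both intronic regions of Egln1 held the palindrome CACGTG. The more accessible one had 2 palindromes, as printed above, and at least 2 were present in 1.01% of the 3750 regions of like width away from starts. The other had 1, and at least 1 was present in 8.48% of comparable regions. The palindrome was found in 4 of all 33 regions, the remaining ones being the start region of Egln2 and the promoter region of Impdh2. The more accessible intronic region also held a GCGTG core, an AP-1 site (TGACTCA) and an NRF1 core (GCATGCGC).

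The upstream regions of Egln1 had a different content. The region at chr8:124954494-124955413, centered at -5629 bp relative to the start, had a level of 3.65 log2 CPM and stood at the 56.9 percentile of regions of like width away from starts. It held an AP-1 site at -5600 to -5594 bp and no HRE core. HRE cores were present in 60.7% of regions of like width away from starts and AP-1 sites in 36.9%. At about this place upstream of Egln1, the study reported a region that became more accessible in osteocytes with FG-4592. The pooled value mixes the groups and cannot show such a change. The region at chr8:124960106-124960958 had 2.98 log2 CPM, at the 31.0 percentile for its width, with neither motif.

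Egln3, like Egln1, had an intronic region with a pooled mean level above that of its start region. It lay at chr12:54191887-54192488, centered 11673 bp after the start, with 2.62 log2 CPM, 0.20 above the Egln3 start region and 0.31 above it per kb. Against regions of like width away from starts it stood at the 54.2 percentile, and the Egln3 start region at the 19.1 percentile of promoter regions of like width. It held 1 HRE core and no AP-1 site. The region before the gene, chr12:54204977-54205533, had the lowest level at Egln3, 1.97 log2 CPM, and held neither motif. Of the 5 members with a region away from starts, these 2 had one above their start region. Among 9931 coding genes with both kinds of region, this was so at 16.6%, or at 23.4% when levels were compared per kb.

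Hif1an had no region inside the gene apart from that over its start, and its strongest region away from starts lay downstream, at chr19:44582639-44583180, 6365 bp past the end of the gene. The region was 542 bp wide with 4.70 log2 CPM per kb. Its level of 3.82 log2 CPM stood at the 97.0 percentile of regions of like width away from starts, the highest such percentile among the 10. It held 2 HRE cores and no AP-1 site, and at least 2 cores were present in 13.7% of comparable regions. A narrow region further downstream, chr19:44588244-44588443, had 0.44 log2 CPM and neither motif.

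Egln2 differed from its paralogs in that its accessible regions inside the gene were close to annotated starts. The region at chr7:27159806-27160351 covered the coding parts of exons 3 and 4 near the start of a noncoding transcript, with a level of 4.46 log2 CPM, at the 97.3 percentile of promoter regions of like width. Its level per kb, 5.33, was above the 5.05 of the start region itself. It held no HRE core, although 63.1% of promoter regions of like width held one. A region of 253 bp at chr7:27161808-27162060, in an intron, had 2.28 log2 CPM and an AP-1 site, which 11% of promoter regions of like width also held. The only region of Egln2 away from starts, chr7:27185021-27185279, of 259 bp, had 0.97 log2 CPM, 2.92 per kb, at the 47.2 percentile for its width, with neither motif.

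The highest level of the 33 belonged to a neighbor of Egln2. The promoter region of Rab4b, a small GTPase of endosomal recycling, at chr7:27178282-27179299 had 6.65 log2 CPM and stood at the 99.3 percentile of promoter regions of like width. At Vhl, the promoter regions of the neighbors Brk1, a subunit of the actin-regulating WAVE complex, and Irak2, a kinase of interleukin signaling, had 4.88 and 4.91 log2 CPM. The region away from starts at Vhl, in exon 3 of Brk1 (chr6:113616031-113616230), had the lowest level of the 33, -0.06 log2 CPM. It was 200 bp wide, had 2.26 log2 CPM per kb, stood at the 3.21 percentile for its width and held neither motif. At Egln1 the shared promoter of Exoc8 and Sprtn, downstream, had 5.86 log2 CPM. At Hif1an the neighbors were Ndufb8 with 4.48 log2 CPM and Sec31b with regions of 2.40 and 1.57 log2 CPM. At P4htm they were Impdh2, Dalrd3 and Ndufaf3, whose regions ran from 2.74 to 5.94 log2 CPM, and the transcript Gm49209 with 1.03 log2 CPM. A narrower region near the Rab4b promoter, over exons of Mia, had 3.01 log2 CPM.

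HRE cores were counted in all 33 regions, with overlapping matches taken as 1 site. A core was present in 21 regions (63.6%, exact 95% binomial interval 45.1% to 79.6%), 66 sites in all. Regions of like width in the whole list held a core in 57.3% on average, and regions of like width and of the same class, promoter or not, in 64.3%. The share at these genes was therefore close to that of comparable regions. By class, the core was found in 17 of 23 promoter regions (73.9% against 73.5% in comparable regions) and in 4 of 10 regions away from starts (40% against 43.2%). All 3 regions that lay in introns away from starts held a core, against 53.3% of comparable regions on average, and 1 of the 6 regions outside genes did, against 42%. With so few regions these counts set no class apart.

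The 6 start regions together held 18 cores, with 6 at Egln2, 4 at Vhl, 3 each at Egln1 and Egln3, and 1 each at Hif1an and P4htm. Over the start regions of coding genes the median was 3. At Egln2, 5 of the 6 cores began between -151 and -4 bp, and the last of these, a CACGTG, crossed the start. From 250 bp before to 49 bp after the start, at least 5 cores were present at 1.56% of coding genes with an accessible start, and at least 1 at 64.1%. At Egln1 cores began at -56, 2 and 295 bp. At Egln3, Hif1an, Vhl and P4htm every core inside the start region lay after the start, at 257, 423 and 466 bp in Egln3, at 155 bp in Hif1an and at 326 bp in P4htm. In Vhl they began at 125, 144, 743 and 920 bp, and the first was a run of 3 overlapping cores. Egln3 also had a core at -243 bp, upstream of its accessible region, which ended 143 bp before the start. Hif1an, Vhl and P4htm had none between 250 bp before and 49 bp after the start.

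**Figure D3:**
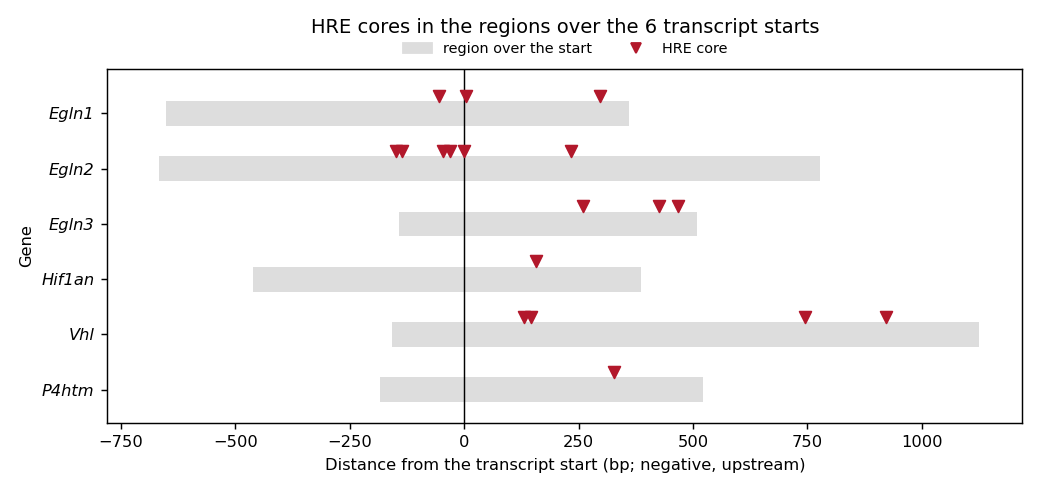
Position of HRE cores (triangles) in bp from the outermost transcript start (x axis) in the region over the start of each of the 6 genes (y axis), with grey bars for the extent of the region. Within these regions, cores lie before the start at Egln1 and Egln2, and only after it at the other 4 genes. A core of Egln3 at -243 bp lies outside its region and is not drawn.

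Against promoter regions of like width, the number of cores in the Egln2 start region was not unusual, since 32.5% held at least as many. The same share was 52.7% for Egln1, 19.7% for Egln3, 81.2% for Hif1an, 52.9% for Vhl and 70.5% for P4htm. The region with the most cores in the 6 windows was the promoter of Impdh2, which encodes an enzyme of guanine nucleotide synthesis, in the P4htm window at chr9:108560103-108561077. It was 975 bp wide with 4.49 log2 CPM and 4.52 per kb, at the 46.1 percentile of promoter regions of like width. It held 11 cores, and at least as many were present in 0.388% of promoter regions of like width. The other regions with the most cores in their windows were the Exoc8 and Sprtn promoter near Egln1, with 7, and the Brk1 promoter near Vhl, with 5. The former (chr8:124896619-124898476, 1858 bp) had 4.97 log2 CPM per kb and stood at the 52.7 percentile of promoter regions of like width, of which 36.1% held at least as many cores. The latter (chr6:113604370-113605682, 1313 bp) had 4.48 log2 CPM per kb and stood at the 30.4 percentile, and 38.4% held at least as many. At Hif1an this was the downstream region with 2 cores, and at Egln2 and Egln3 it was the start region itself.

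**Figure D4:**
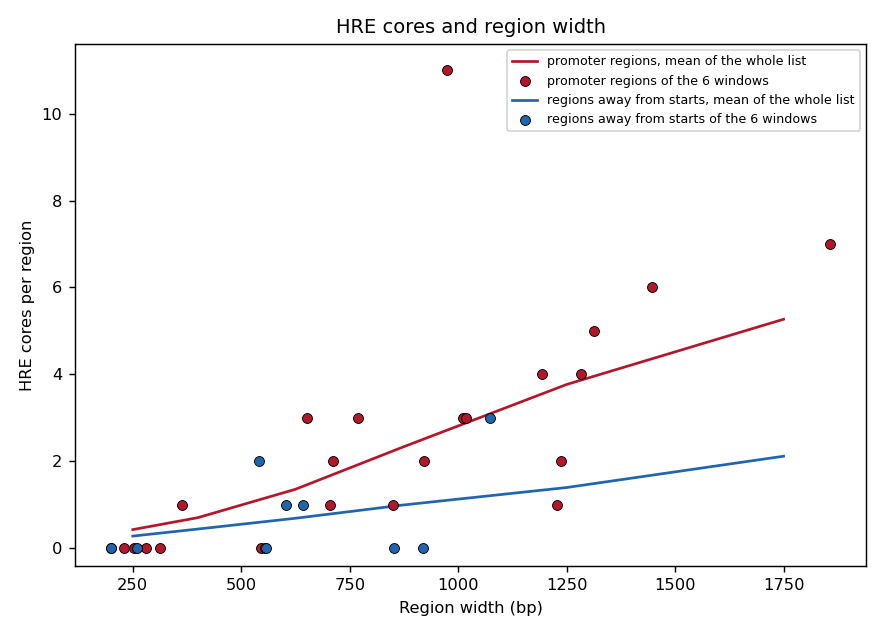
Number of HRE cores per region (y axis) against region width in bp (x axis) for the 33 regions (points) and as the mean of bins of width over the whole list (lines), with promoter regions in red and regions away from starts in blue. Most of the 33 points follow the lines, and the Impdh2 promoter with 11 cores lies far above.

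AP-1 sites occurred in 3 of the 33 regions (9.09%, exact 95% binomial interval 1.92% to 24.3%), against 24.8% on average in regions of like width and 19.3% in regions of like width and class, and the interval includes the latter value. The 3 were the intron 1 region of Egln1, the Egln1 region at -5629 bp and the intronic region of 253 bp in Egln2. None of the 6 start regions held an AP-1 site, and 13.3% of regions over an outermost start did. The SP/KLF box was present in all 6 start regions, with 11 sites at Egln1, 7 at Vhl, 6 at Egln2, 3 at Hif1an and 1 each at Egln3 and P4htm, and in 86.9% of all regions over an outermost start.

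The members were set beside 15 other genes of the HIF switch and the 3 collagen prolyl 4-hydroxylases, which act on procollagen, 18 genes in all, counted in the same windows. All 18 had a region within 1000 bp of an annotated start, and 14 had one over the outermost start. The median level of the start regions was 4.72 log2 CPM per kb at the 6 members, with a range of 3.04 to 5.29. It was 5.44 at the 4 partners of Vhl in the ubiquitin ligase, from 4.86 at Elob to 6.14 at Rbx1, the RING subunit that recruits the ubiquitin-conjugating enzyme. Each of these partners was thus above Vhl with its 4.75. Among the HIF subunits, the start regions of Epas1 (HIF-2 alpha) and Arnt (the beta subunit) had 5.26 and 4.73 log2 CPM per kb. The highest region near a start of Hif1a had 5.67, whereas those of Hif3a and Arnt2 had 2.52 and 2.97.

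The other regulators of HIF ranged from 4.55 log2 CPM per kb at Siah1a to 5.77 at Crebbp, with a median of 5.35. Siah1a and Siah2 encode ubiquitin ligases that act on PHD proteins, and Siah2 had 5.48. Crebbp and Ep300 (5.45) encode the coactivators whose binding is blocked by the product of Hif1an. Among the collagen prolyl hydroxylases, the enzymes most like P4htm, P4ha1 had 5.91 and P4ha3 had 2.94 over the outermost start. The highest regions near any start of P4ha2 and P4ha3 had 5.11 and 3.62. Among the 14 genes with a region over the outermost start, P4ha3 was the only one below Egln3 per kb. It was also the only one of the 12 with both kinds of region in which a region away from starts (3.51 log2 CPM) was above the region over the outermost start (1.38), although its region near another start had 3.46.

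**Figure D5:**
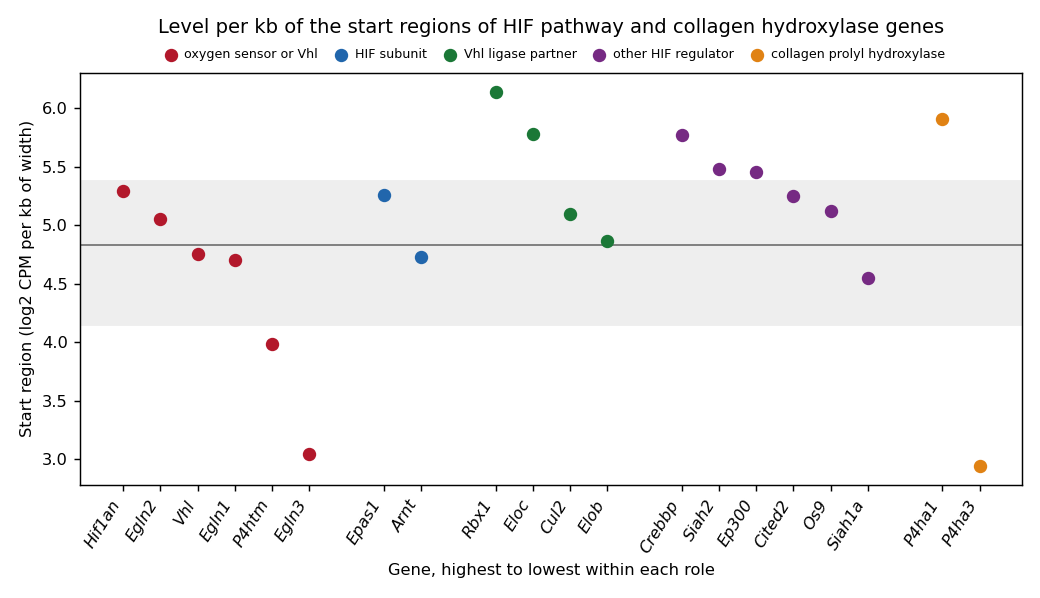
Level of the region over the outermost start in log2 CPM per kb of region width (y axis) for the 6 members and for the 12 other HIF pathway genes and 2 collagen prolyl hydroxylases that have one (x axis, by role), with the median of all such regions as a line and their quartiles as a grey band. Egln3 (3.04) and P4htm (3.98) lie below the band, as does P4ha3 (2.94), and Rbx1 (6.14) is highest.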

How the data were processed

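Per the study's methods and the submitters' processing notes, the authors trimmed reads with Trim Galore, aligned them to mm10 with Bowtie2, removed duplicates with Picard 2.17.8, called peaks with MACS2 2.2.7.1, merged the peaks of several libraries, dropped blacklisted regions, counted cuts per region, normalised by TMM and tested with edgeR 3.24.3. Whether cuts were shifted for Tn5 is not given in the sources used here, and a library that the authors excluded was not analysed. A merged region spans all peaks beneath it, so that its width rises with the libraries that contributed. The deposited list holds 1 value per region and no depth per library. The deposited values were read as log2 CPM averaged over libraries, made by the authors from TMM-normalised cut counts, because 460 of them fall below 0 and their linear values sum to 1012761. This reading was inferred.

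Regions overlapping a gene or its flanks of 20 kb by at least 1 bp were taken, with GENCODE M21 genes on mm10 and 1-based coordinates. Linear values were divided by region width for the level per kb. Percentiles give the share of background regions or genes with a lower value. Promoter regions lay within 1000 bp of an annotated start, and regions of like width differed by at most 10%. Motifs were searched on both strands of GRCm38, and binomial intervals cover counting error only. Full values were given for the start region of each member, its highest region away from starts and its region with the most HRE cores, and every other region was accounted for. The members and gene lists were chosen with earlier results of these data known. Motif search and overlaps were tested on simulated data. Python 3.11.15 was used with numpy 2.4.6, pandas 2.3.3, scipy 1.17.1, pysam 0.24.0 and matplotlib 3.10.9.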

Additional observations from a re-analysis of the deposited data

How the results depend on the processing

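No paired analysis was possible because only 1 pooled value per region was given, and the planned comparisons of FG-4592 with vehicle and of osteocytes with MSCs were not run for the same reason. The 33 regions became 14 with gene bodies only and stayed between 22 and 48 under the other alternatives. The summed CPM per 10 kb over the 6 windows, 19.7, was 17.0 with flanks of 10 kb, 12.3 with 50 kb, 24.9 with gene bodies only, 18.9 with regions at least 500 bp wide and 19.6 with regions of at least 1 log2 CPM. The median percentile of the 6 start regions, 61.4 among coding promoter regions, was 56.2 with promoters within 500 bp, 67.6 within 2000 bp, 55.6 against the same chromosome and 42.1 against regions over an outermost start, an alternative chosen after seeing the data. Under each of these backgrounds Egln3 was lowest and Egln2 highest, but per kb Hif1an was highest. The HRE share, 63.6%, was 42.4% with ACGTG only, 30.3% with ACGTGC or GCGTGC, 30.3% in the central 200 bp and 80.0% in regions at least 500 bp wide, beside 39.3%, 32.8%, 34.1% and 75.2% in regions of like width and class. The AP-1 share ran from 6.06% to 15.2% and was below that of such regions under each alternative, by the least in the central 200 bp (8.09%). Which regions a deeper data set would add cannot be said.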
